A study of Mus musculus with 4 samples.

Results

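The tetraspanins of mouse lung epithelium were compared between embryos with a conditional knockout of Emc3 in this developing epithelium and wild-type embryos. Members were chosen by name alone: 20 genes whose symbol is Tspan followed by a number, and 9 that carry older names (Cd9, Cd37, Cd53, Cd63, Cd81, Cd82, Cd151, Upk1a and Upk1b), which makes 29 of the 23444 genes in the deposited table. EpCAM-positive cells were sorted from lungs at E18.5 (embryonic day) and their RNA was sequenced in 4 libraries, 2 from Emc3 conditional knockout embryos (KO) and 2 from wild-type embryos (WT). Emc3 encodes a core subunit of the ER membrane protein complex, a machine of the endoplasmic reticulum that helps membrane proteins into the lipid bilayer. The sources used here do not give the driver of the deletion, the strain, or how many animals stand behind a library.

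Tetraspanins are small membrane proteins that cross the bilayer several times and carry a short and a long extracellular loop. They act mostly as organisers: they bind integrins, immunoglobulin-like proteins and proteases side by side in the membrane, steer some of these partners from the ER to the cell surface, and mark late endosomes and the vesicles released from them. In the lung, mice that lack both Cd9 and Cd81 are known to develop enlarged airspaces. The measurements here are of RNA and do not show whether the proteins were inserted or stable.

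Each library is named by the mutant (KO) or control (WT) heading of its column and by the first number there, 27 or 35. Values are in RPKM, read counts scaled by gene length and by library size, and the 4 columns sum to between 141373 and 169294 RPKM. The sample titles with the same library numbers place 2 of the 4 in the opposite group, and the headings were followed. Emc3 reached 2.28 RPKM in KO 27 and 2.33 RPKM in KO 35, against 14.2 RPKM in WT 27 and 18.0 RPKM in WT 35, which goes with the headings. Its log2 fold change on the log2(RPKM + 1) scale was -2.36 (SE 0.16, limma adjusted p = 0.0242), and it was 0.17 with the groups of the titles. The call was lost without KO 27 (limma adjusted p = 0.0664, log2 fold change -2.35), without KO 35 (limma adjusted p = 0.0642, log2 fold change -2.37), with a filter of 10 RPKM (limma adjusted p = 0.0696) and with no filter (limma adjusted p = 0.278). The epithelial marker Epcam, by which the cells were sorted, was at 52.9 and 53.9 RPKM in KO and at 35.2 and 46.2 RPKM in WT. The 5 epithelial markers together overlapped, with sums of 506 and 488 RPKM in KO and 466 and 491 RPKM in WT. Nkx2-1 made up the largest part of each sum, at 271 and 264 RPKM in KO and 270 and 278 RPKM in WT. Epcam, Krt8 and Krt18 had both KO values above both WT values (30.0% of all tested genes), while Cdh1 and Nkx2-1 overlapped. The basal cell markers Trp63, Krt5 and Krt14 summed to 0.347 and 0.577 RPKM in KO and 0.564 and 0.799 RPKM in WT. Markers of alveolar type 2 cells, the surfactant-making cells, summed to 9072 and 8910 RPKM in KO and 7747 and 11481 RPKM in WT, nearly all of it from Sftpc and Sftpb. Of the 5 such markers Abca3 and Etv5 were lower in both KO libraries, as were 16.3% of all tested genes. Abca3 was at 59.2 and 51.5 RPKM in KO against 70.1 and 89.98 RPKM in WT. Etv5 was at 69.6 and 61.9 RPKM in KO against 85.8 and 92.6 RPKM in WT. The 6 markers of alveolar type 1 cells summed to 199.2 and 198.6 RPKM in KO and 311.6 and 188.6 RPKM in WT, the highest sum being in WT 27. Of these 6, Rtkn2 was lower in both KO libraries (16.3% of all tested genes) and the other 5 overlapped. All 5 ciliated cell markers were lower in both KO libraries, beside the 16.3% of all tested genes. Their sums were 96.9 and 98.7 RPKM in KO against 136 and 209 RPKM in WT. Of 3 club cell markers 2 (Cyp2f2 and Scgb3a2) were lower in both KO libraries. The 3 summed to 1729 and 2889 RPKM in KO against 2807 and 10016 RPKM in WT, nearly all of it from Scgb1a1. Scgb1a1 itself overlapped, at 1560 and 2698 RPKM in KO and 2556 and 9678 RPKM in WT. None of these markers passed the limma test, which the basal markers were too low to enter. In RNA of a cell mixture, fewer cells of a type and less RNA per cell cannot be told apart. The part of such shifts in the tetraspanin values below was not tested. Nothing tells whether libraries of a group came from separate litters. The p-values reflect the spread between the 4 libraries alone, that of the gene joined by limma to that of all tested genes. The number of reads is unknown.

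Of the 29 tetraspanins, 20 reached 1 RPKM in at least 2 libraries and were tested, none of them through 1 group only. Together the family summed to 353 RPKM in KO 27 and 378 RPKM in KO 35, against 311 RPKM in WT 27 and 306 RPKM in WT 35, that is 365 ± 17.6 RPKM in KO and 309 ± 3.23 RPKM in WT (SD, n = 2 each). This sum is 0.249% and 0.257% of all RPKM in KO, and 0.205% and 0.181% in WT. Both KO libraries thus lay above both WT libraries in the family's sum. A few genes carry most of it: Cd81, Cd9, Cd63 and Tspan8 made up 61.6% and 60.8% of the sum in KO and 61.2% and 58.2% in WT. By mean over the 4 libraries the order ran from Cd81 (71.6 RPKM, rank 255 of all genes) through Cd9 (58.3), Cd63 (41.7), Tspan8 (32.3), Tspan2 (22.1), Tspan11 (15.8), Cd151 (13.9) and Tspan31 (11.3) to Tspan15 (10.6 RPKM). The other 11 tested members averaged 1.40 to 9.04 RPKM. The ranges of neighbours in this order were not always separate. Those of Cd81 and Cd9 overlapped between 59.4 and 63.4 RPKM, though Cd81 was above Cd9 within each library. Tspan11, Cd151 and Tspan31 overlapped as well. Cd151 was above Tspan31 within each library, while Tspan11 was above both in KO 27 and below both in WT 27.

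**Figure D1:**
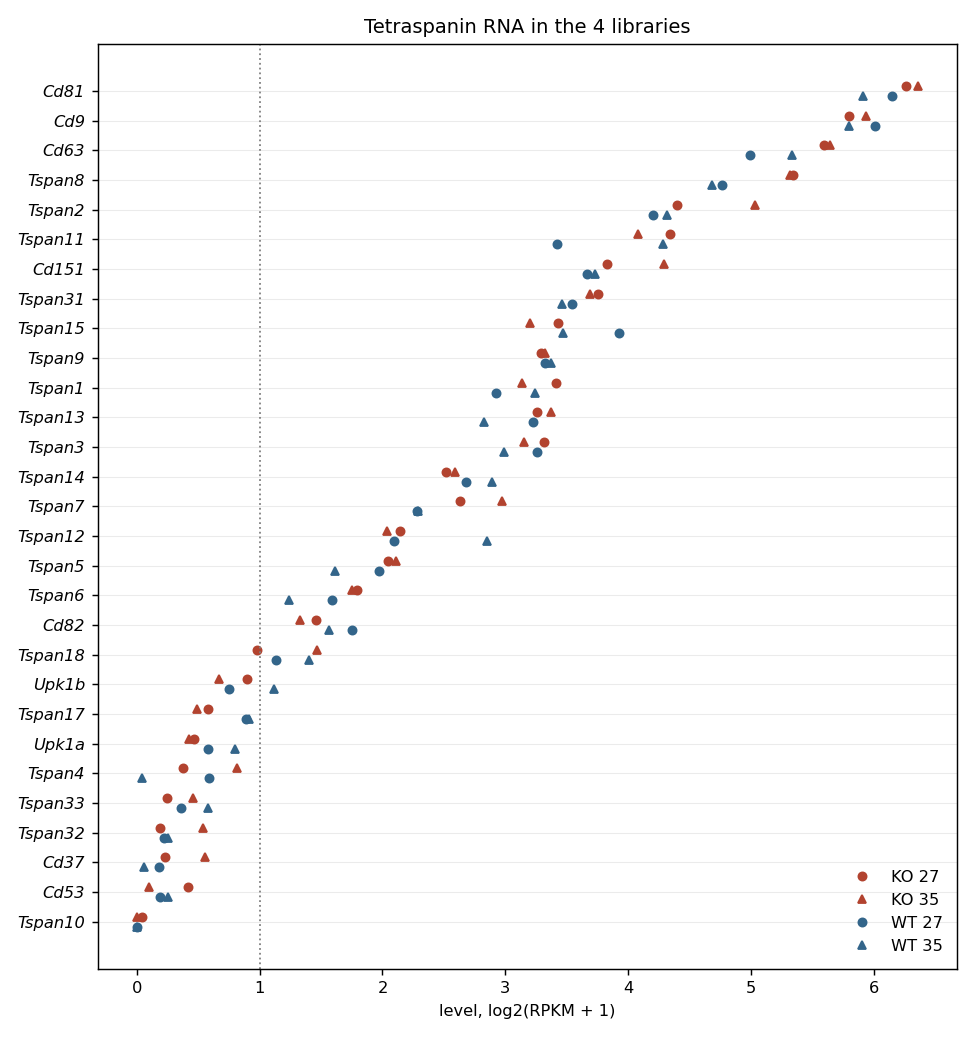
Level of each of the 29 tetraspanins as log2(RPKM + 1), in order of the mean, with KO libraries (red) drawn above WT libraries (blue) in each row; circles are the libraries numbered 27 and triangles those numbered 35. The dotted line marks 1 RPKM, and Cd81, Cd9, Cd63 and Tspan8 stand at the top while 9 members lie near or left of the line.

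No tetraspanin passed the test between KO and WT. Genotype was tested with limma on log2(RPKM + 1) over 10128 genes, and 0 of the 20 tested members had an adjusted p under 0.05, against 7 genes or 0.0691% of all tested genes. The lowest limma adjusted p of a member was 0.196. At an unadjusted limma p under 0.05 there were 3 members higher (Tspan8, Tspan7 and Cd63; 8.17% of all genes) and 0 lower (5.68% of all genes). The median log2 fold change of the 20 was 0.25, beside 0.06 for all tested genes, and 13 were positive (59.2% of all genes). Both KO libraries lay above both WT libraries for 10 of the 20, where 30.0% of all genes did, and below for 4 of the 20, where 16.3% of all genes did. The difference exceeded the gap between the libraries of either group for 9 of the 20, and for 33.5% of all genes. The gap between the WT libraries was larger than that between the KO libraries for 16 of the 20. The share of all genes with a larger WT gap was not counted, so this need not be particular to the family. Without WT 35 the median was 0.13.

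**Figure D2:**
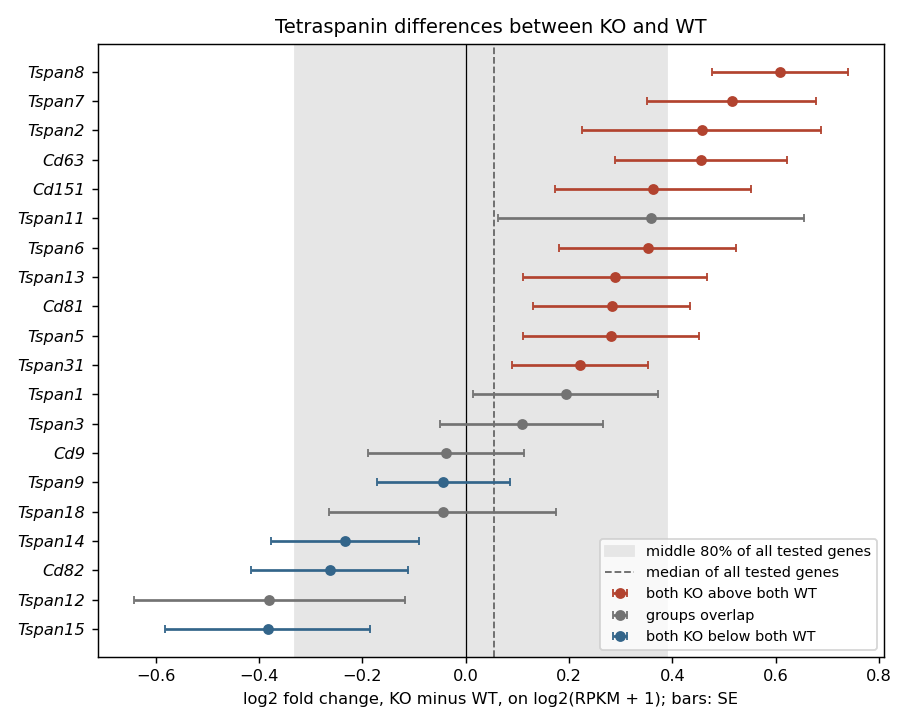
Log2 fold change of the 20 tested tetraspanins, KO minus WT, with the moderated SE of limma as bars. Red marks genes with both KO libraries above both WT libraries, blue the reverse and grey overlapping groups. The dashed line is the median of all 10128 tested genes (0.06) and the shading spans their 10th to 90th percentile (-0.33 to 0.39), outside which lie Tspan8, Tspan7, Tspan2 and Cd63 on the high side and Tspan12 and Tspan15 on the low side.

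Tspan8 showed the largest difference of the 20 tested members. This tetraspanin of epithelia, known from carcinomas in which it is linked to cell migration, lies on chromosome 10 from 115816817 to 115849893 (GRCm38). It reached 39.6 RPKM in KO 27 and 38.9 RPKM in KO 35, against 26.2 RPKM in WT 27 and 24.6 RPKM in WT 35. The KO libraries agree within 1 RPKM and the groups are far apart: the means are 39.3 ± 0.490 RPKM in KO and 25.4 ± 1.09 RPKM in WT (SD, n = 2 each), a ratio of 1.55. The log2 fold change was 0.61 (SE 0.13, limma adjusted p = 0.196), which did not pass, and it lay between 0.54 and 0.65 in every setting that keeps the groups of the headings.

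Cd63, the tetraspanin of late endosomes, lysosomes and lysosome-related organelles (chromosome 10, 128896231 to 128912822), reached 47.4 RPKM in KO 27 and 49.0 RPKM in KO 35, against 30.8 RPKM in WT 27 and 39.4 RPKM in WT 35. The groups do not overlap, with a log2 gap of 0.05 between the KO libraries and 0.35 between the WT libraries. The means were 48.2 ± 1.17 RPKM in KO and 35.1 ± 6.11 RPKM in WT (SD, n = 2 each). Its log2 fold change was 0.46 (SE 0.17, limma adjusted p = 0.326), and 0.28 without WT 27. Cd81, a widely expressed organiser of surface receptors (chromosome 7, 143052750 to 143067930), had 75.7 and 81.4 RPKM in KO libraries, against 69.8 and 59.4 RPKM in WT libraries. Its groups do not overlap either: the means were 78.6 ± 4.01 RPKM in KO and 64.6 ± 7.42 RPKM in WT (SD, n = 2 each), with a log2 fold change of 0.28 (SE 0.15, limma adjusted p = 0.485) that was 0.17 without WT 35.

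Cd9, which is needed for the fusion of egg and sperm and is close to Cd81 in function (chromosome 6, 125460266 to 125494760), reached 54.6 RPKM in KO 27 and 60.4 RPKM in KO 35, against 63.4 RPKM in WT 27 and 54.9 RPKM in WT 35. KO 27 lies just below both WT libraries and KO 35 between them, so the groups overlap. The means were 57.5 ± 4.06 RPKM in KO and 59.1 ± 6.06 RPKM in WT (SD, n = 2 each), and the log2 fold change was -0.04 (SE 0.15, limma adjusted p = 0.938). Its sign turned to 0.03 without KO 27 and to 0.06 without WT 27. The 4 most abundant members therefore showed 3 separations of unequal size and 1 overlap.

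**Figure D3:**
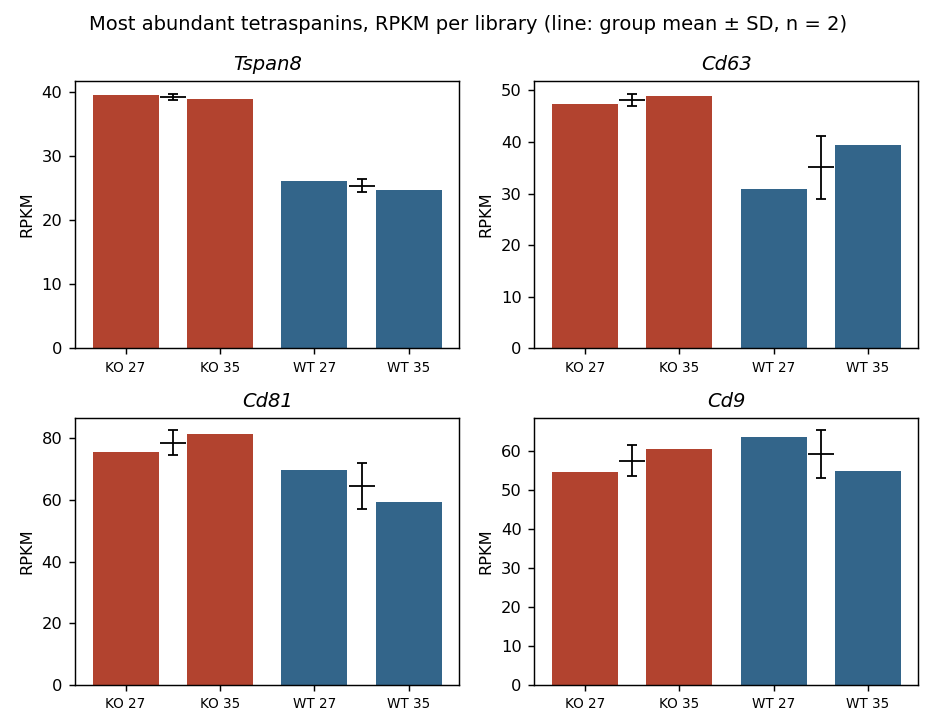
RPKM of Tspan8, Cd63, Cd81 and Cd9 in each library, KO (red) left of WT (blue), with the group mean and SD (n = 2) drawn between the bars of a group. Tspan8 separates with little spread in either group, Cd63 and Cd81 separate with a wide WT spread, and Cd9 overlaps.

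Sequence upstream of an annotated start is given for 3 of these genes. Shown are the 250 bases before an annotated start, 5′ to 3′ on the gene's strand (RefSeq, GRCm38.p6), of Tspan8 and Cd63, which were among the 3 members with the lowest p, and of Cd9, whose groups overlapped. Capitals mark any of 3 promoter motifs found on either strand. The GC box was searched as GGGCGG. The CCAAT box was searched by those letters. The TATA box was searched as TATAAA. Tspan8 is chr10:115817034-115817283 (+), Cd63 chr10:128909095-128909344 (+) and Cd9 chr6:125494761-125495010 (-). The windows of Tspan8 and Cd63 lie inside the spans given above, which begin upstream of the start used here, and the data do not tell which start was used.
Tspan8: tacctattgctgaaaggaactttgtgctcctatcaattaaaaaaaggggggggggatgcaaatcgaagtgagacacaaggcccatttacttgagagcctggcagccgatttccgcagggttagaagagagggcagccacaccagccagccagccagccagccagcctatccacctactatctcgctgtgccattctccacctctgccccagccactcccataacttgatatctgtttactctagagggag
Cd63: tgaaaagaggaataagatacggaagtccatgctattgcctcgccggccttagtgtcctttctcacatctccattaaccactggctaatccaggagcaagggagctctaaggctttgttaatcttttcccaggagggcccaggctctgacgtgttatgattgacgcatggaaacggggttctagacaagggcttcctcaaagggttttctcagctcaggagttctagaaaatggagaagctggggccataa
Cd9: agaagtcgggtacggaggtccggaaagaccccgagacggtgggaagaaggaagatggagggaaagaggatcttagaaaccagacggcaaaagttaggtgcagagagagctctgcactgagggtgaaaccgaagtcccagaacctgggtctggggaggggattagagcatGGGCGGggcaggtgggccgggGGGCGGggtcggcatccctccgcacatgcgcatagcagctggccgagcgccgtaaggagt
The Cd9 window held 2 GC boxes and was 61.6% G or C, while the windows of Tspan8 (52.4%) and Cd63 (48.8%) held none of the 3 motifs. RefSeq windows were at hand for 27 of the 29 genes, 37 windows in all. A GC box was in 43.2% of these 37 and in 32.7% of all 32851 windows of this length, a CCAAT box in 29.7% and 33.8%, and a TATA box in 2.70% and 12.4%, the 1 tetraspanin with it being Tspan12. The UPR element (TGACGTGG) was in 0 of the 37 and in 0.563% of all windows. Also absent from the 37 were the ER stress element (CCAAT and CCACG with 9 bases between them, 0.113% of all windows), the cyclic AMP response element (TGACGTCA, 1.55%) and the amino acid response element (TGATGNAAT, 0.816%). All motifs were searched on both strands, and the CCAAT box is part of the ER stress element. At such low shares an absence from 37 windows says little, and these letters say nothing of binding.

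Cd151, Tspan2 and Tspan11 each had a higher KO mean, and in each the difference depended on 1 library. Cd151, which holds laminin-binding integrins at the cell base (chromosome 7, 141467362 to 141471481), reached 13.2 RPKM in KO 27 and 18.6 RPKM in KO 35, against 11.7 RPKM in WT 27 and 12.3 RPKM in WT 35. KO 35 stands apart, and the means were 15.9 ± 3.82 RPKM in KO and 12.0 ± 0.435 RPKM in WT (SD, n = 2 each). Without KO 35 the log2 fold change of 0.36 (SE 0.19, limma adjusted p = 0.477) was 0.13. Tspan2, a relative of Cd9 known from oligodendrocytes and neurons (chromosome 3, 102734770 to 102772310), had the same form: 20.1 and 31.8 RPKM in KO and 17.4 and 18.95 RPKM in WT. KO 35 is again the highest, with means of 26.0 ± 8.29 RPKM in KO and 18.2 ± 1.07 RPKM in WT (SD, n = 2 each). Its log2 fold change was 0.46 (SE 0.23, limma adjusted p = 0.460), and 0.14 without KO 35. KO 35 was also the library with the most marker RNA of platelets and megakaryocytes, cells that express Cd151 and Cd9 too. The 4 markers (Pf4, Ppbp, Itga2b and Gp9), of which 2 were tested and 0 passed, summed to 2.24 and 17.2 RPKM in KO and 2.62 and 3.03 RPKM in WT. The part of these cells in the levels of Cd151 and Tspan2 was not tested. Tspan11, the closest relative of Cd151 (chromosome 6, 127887509 to 127953031), had 19.2 and 15.9 RPKM in KO libraries, against 9.70 and 18.4 RPKM in WT libraries. Here 1 WT library is low and the groups overlap, with means of 17.6 ± 2.35 RPKM in KO and 14.1 ± 6.18 RPKM in WT (SD, n = 2 each). The log2 fold change of 0.36 (SE 0.30, limma adjusted p = 0.659) was -0.07 without WT 27.

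Of 7 laminin-binding integrin genes and immunoglobulin partners, 0 passed the test in either direction, and the median log2 fold change was -0.03. Both KO libraries were higher for 2 (30.0% of all genes) and lower for 0 (16.3% of all genes). Itga6, the α6 chain that CD151 binds, was at 19.1 and 21.2 RPKM in KO and 13.9 and 12.3 RPKM in WT (log2 fold change 0.59, SE 0.14, limma adjusted p = 0.205). Itgb1, the β1 chain, was at 28.4 and 30.0 RPKM in KO and 23.5 and 23.9 RPKM in WT. Itga3, the other CD151-binding α chain, overlapped at 12.9 and 14.8 RPKM in KO and 14.1 and 14.2 RPKM in WT. The Cd9 and Cd81 partner Ptgfrn overlapped too, at 28.2 and 29.2 RPKM in KO against 25.7 and 33.7 RPKM in WT, and its relative Igsf8 was low at 1.52 to 2.32 RPKM throughout. Among 10 tested genes of other surface partners, with 0 past the threshold and a median of 0.08, the hyaluronan receptor Cd44 had the largest difference. It was at 21.8 and 19.6 RPKM in KO and 3.72 and 5.34 RPKM in WT, or a log2 fold change of 1.99 (SE 0.19) with limma adjusted p = 0.0648. The limma adjusted p was 0.0348 without WT 27 and 0.0202 without WT 35, but 0.136 without KO 27, 0.136 without KO 35 and 0.387 with no filter. The adhesion receptor Icam1 was at 31.2 and 40.3 RPKM in KO against 24.5 and 19.2 RPKM in WT, and the HGF receptor Met at 9.87 and 10.2 RPKM in KO against 10.4 and 20.6 RPKM in WT.

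The TspanC8 genes lay on either side of WT, while their partner Adam10 lay above it. The proteins of this subgroup, Tspan5, Tspan10, Tspan14, Tspan15, Tspan17 and Tspan33, bind the protease ADAM10, take it out of the ER and guide which proteins it cuts. Adam10 reached 13.0 RPKM in KO 27 and 12.7 RPKM in KO 35, against 7.35 RPKM in WT 27 and 7.14 RPKM in WT 35. The libraries of each group are nearly equal, and the log2 fold change was 0.75 (SE 0.13, limma adjusted p = 0.159). Tspan15, the most abundant TspanC8 gene here (chromosome 10, 62185396 to 62231276), had 9.78 and 8.18 RPKM in KO libraries, against 14.2 and 10.1 RPKM in WT libraries. The groups do not overlap, with means of 8.98 ± 1.13 RPKM in KO and 12.1 ± 2.92 RPKM in WT (SD, n = 2 each). It had, with Tspan12, the lowest log2 fold change of the tested members, -0.38 (SE 0.20, limma adjusted p = 0.471), with a gap of 0.46 between the WT libraries, and the value was -0.15 without WT 27. Tspan14 was at 4.73 and 5.01 RPKM in KO and 5.42 and 6.41 RPKM in WT, with no overlap and a log2 fold change of -0.23 (SE 0.14, limma adjusted p = 0.546), which was -0.13 without WT 35.

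Tspan5 lay on the other side, at 3.12 and 3.32 RPKM in KO and 2.93 and 2.06 RPKM in WT (log2 fold change 0.28, SE 0.17, limma adjusted p = 0.537), a value that was 0.10 without WT 35. Its near relative Tspan17 did not reach the level needed for testing: 0.494 and 0.402 RPKM in KO and 0.853 and 0.881 RPKM in WT, with both KO libraries lower. Tspan33, at 0.184 to 0.495 RPKM, overlapped, and Tspan10, a gene of pigment cells, was listed at 0 in 3 libraries and at 0.0306 RPKM in KO 27. Summed over the 6 genes, TspanC8 RNA was 18.3 and 17.3 RPKM in KO and 23.7 and 19.9 RPKM in WT. Among ADAM10, its relative ADAM17 and 6 proteins that they cut, 0 of 8 genes passed and the median was -0.01. Adam10, Adam17 and Cx3cl1 lay higher in both KO libraries (3 of 8, and 30.0% of all genes). Cx3cl1 was near the filter, at 1.197 and 1.195 RPKM in KO and 0.436 and 0.519 RPKM in WT. It entered the test through the KO libraries alone, which fixed its side. Notch1, Notch2 and App lay lower (3 of 8, and 16.3% of all genes), and Cdh1 and Jag1 overlapped. Notch2, for one, was at 9.83 and 9.19 RPKM in KO and 13.1 and 13.1 RPKM in WT (log2 fold change -0.42, SE 0.13, limma adjusted p = 0.267).

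**Figure D4:**
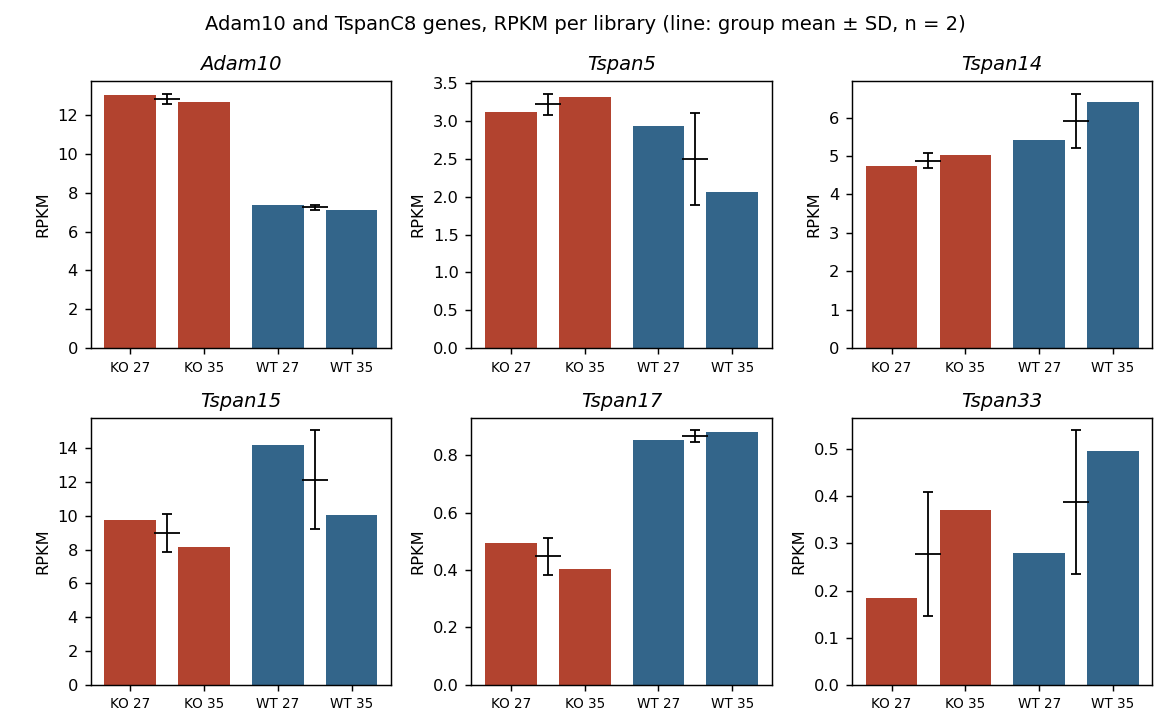
RPKM of Adam10 and of the 5 TspanC8 genes above 0.1 RPKM in each library, KO (red) left of WT (blue), with the group mean and SD (n = 2) between the bars; each panel starts at 0 and has its own scale. Adam10 and Tspan5 are higher in both KO libraries, Tspan14, Tspan15 and Tspan17 lower, and Tspan33 overlaps.

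Tspan7 and Tspan6, close relatives, both lie on the X chromosome (10485116 to 10596604 and 133891068 to 133901208), and human TSPAN7 is known as a gene of X-linked intellectual disability. Tspan7 reached 5.19 RPKM in KO 27 and 6.85 RPKM in KO 35, against 3.86 RPKM in WT 27 and 3.90 RPKM in WT 35. WT libraries are nearly equal, KO 35 is the highest, and the log2 fold change was 0.51 (SE 0.16, limma adjusted p = 0.279). Tspan6, a regulator of antiviral RIG-I signalling, was at 2.46 and 2.36 RPKM in KO and 2.02 and 1.37 RPKM in WT (0.35, SE 0.17, limma adjusted p = 0.446), and its log2 fold change was 0.18 without WT 35. Each group held 1 library with and 1 without Xist, the RNA of the inactive X (0.135 and 55.8 RPKM in KO 27 and KO 35, 83.8 and 0.114 RPKM in WT 27 and WT 35). Tspan31 and Tspan13, the other pair, also lay higher in both KO libraries. Tspan31, which is co-amplified with its neighbour CDK4 in human sarcomas (chromosome 10, 127067287 to 127070972), had 12.5 and 11.9 RPKM in KO libraries, against 10.7 and 10.03 RPKM in WT libraries. The means were 12.2 ± 0.425 RPKM in KO and 10.4 ± 0.451 RPKM in WT (SD, n = 2 each), a small but even step (log2 fold change 0.22, SE 0.13, limma adjusted p = 0.526). In the GENCODE annotation 29.2% of its exon bases overlap Cdk4 on the opposite strand, at 22.0 and 21.2 RPKM in KO and 20.7 and 17.9 RPKM in WT. Nextera XT libraries carry no strand information, so reads of the overlap cannot be assigned and the value of Tspan31 is uncertain. Tspan13 was at 8.57 and 9.35 RPKM in KO and 8.37 and 6.08 RPKM in WT (0.29, SE 0.18, limma adjusted p = 0.546; 0.0869 on the log2 scale without WT 35).

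Cd82, a suppressor of metastasis, lay lower in both KO libraries: 1.74 RPKM in KO 27 and 1.52 RPKM in KO 35, against 2.36 RPKM in WT 27 and 1.96 RPKM in WT 35 (log2 fold change -0.26, SE 0.15, limma adjusted p = 0.517), and the log2 fold change was -0.17 without WT 27. Tspan9, a platelet tetraspanin, had nearly the same level throughout, at 8.79 and 8.99 RPKM in KO and 9.04 and 9.34 RPKM in WT, so that its groups are apart by a log2 fold change of only -0.04. Tspan12, a part of the Norrin receptor complex of retinal vessels, was at 3.43 and 3.11 RPKM in KO and 3.26 and 6.23 RPKM in WT. WT 35 stands apart there: the log2 fold change of -0.38 (SE 0.26, limma adjusted p = 0.596) was 0.0015 without that library. Tspan1 (6.58 to 9.67 RPKM), Tspan3 (6.94 to 8.94 RPKM) and Tspan18 (0.972 to 1.77 RPKM) overlapped, with log2 fold changes of 0.19, 0.11 and -0.04; that of Tspan1 was 0.0336 without WT 27 and 0.0551 without KO 27.

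The 9 members left out of the main test held at most 1.17 RPKM. The leukocyte tetraspanins Cd37, Cd53 and Tspan32 summed to 0.649 RPKM in KO 27 and 0.987 RPKM in KO 35, against 0.441 RPKM in WT 27 and 0.429 RPKM in WT 35. Cd37, of B and myeloid cells, was at 0.175 and 0.465 RPKM in KO and 0.132 and 0.0423 RPKM in WT, and Cd53 and Tspan32 overlapped. Beside this, 4 of the 5 tested leukocyte markers of 8 (Tyrobp, Cd52, Laptm5 and Fcer1g) lay higher in both KO libraries (30.0% of all genes). Tyrobp (3.57 and 1.80 RPKM in KO, 0.831 and 0.182 RPKM in WT) entered the test through the KO libraries alone. So did Cd52 (1.23 and 1.01 RPKM in KO, 0.314 and 0.440 RPKM in WT). The filter thus fixed their place in this count. Lcp1 lay lower (16.3% of all genes), at 28.2 and 27.3 RPKM in KO and 30.4 and 36.7 RPKM in WT. The 8 summed to 45.0 and 41.5 RPKM in KO and 36.3 and 41.4 RPKM in WT, none of them at 0. Lcp1 made up most of each sum. Fcer1g was at 7.87 and 8.84 RPKM in KO and 2.93 and 2.17 RPKM in WT (limma adjusted p = 0.0689), whereas the pan-leukocyte marker Ptprc was at 0.401 and 0.185 RPKM in KO and 0.177 and 0.0616 RPKM in WT. The part of these markers in the levels of Cd37, Cd53 and Tspan32 was not tested.

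The uroplakin tetraspanins of the bladder lining were low: Upk1b at 0.858 and 0.594 RPKM in KO and 0.680 and 1.17 RPKM in WT, and Upk1a at 0.379 and 0.343 RPKM in KO and 0.496 and 0.737 RPKM in WT. Their bladder partners Upk2 and Upk3a stayed under 1 RPKM, while Upk3b, a gene of mesothelium as well, was at 5.28 to 6.39 RPKM in all libraries. Tspan4, known from migrasomes, ranged from 0.0293 to 0.760 RPKM with overlapping groups. Tspan17, Upk1a and Cd37 separate by group below the level for testing. They were tested only in the setting with no filter, where 0 of the 29 members passed.

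Genes of the vesicles and organelles that tetraspanins mark were compared next. Of 13 exosome and multivesicular body genes 12 were tested, 0 passed, the median was 0.07, and both KO libraries were higher for 5 (30.0% of all genes) and lower for 3 (16.3% of all genes). The CD63-binding adaptor syntenin (Sdcbp) was at 29.2 and 33.3 RPKM in KO and 24.8 and 26.1 RPKM in WT (0.28, SE 0.14, limma adjusted p = 0.450), and Alix (Pdcd6ip) at 18.8 and 21.2 RPKM in KO and 16.8 and 16.2 RPKM in WT (0.26, SE 0.14, limma adjusted p = 0.485). Among 7 membrane proteins of late endosomes and lysosomes, the compartment of Cd63, 0 passed and the median was -0.0017. Both KO libraries were higher for 1 of the 7 (30.0% of all genes) and lower for 1 (16.3% of all genes). The cholesterol exporter Npc1 was at 32.6 and 26.3 RPKM in KO against 39.1 and 45.4 RPKM in WT (-0.51, SE 0.17, limma adjusted p = 0.296), and Laptm4a at 23.3 and 26.9 RPKM in KO against 17.4 and 21.2 RPKM in WT (0.36, SE 0.16, limma adjusted p = 0.408). Of 12 genes for proteins of similar membrane topology outside the family, 6 were tested, 0 passed and the median was 0.18. Both KO libraries were higher for 2 (Emp2 and Perp, 30.0% of all genes) and lower for 0 (16.3% of all genes).

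The authors' deposited table also gives its own fold change per gene, and for the tetraspanins it often points the other way than its RPKM columns. For Cd9 the authors' deposited table gives -2.04 (a ratio under 1 is written there as minus its inverse), where the RPKM ratio of KO to WT is 0.972. For Cd81 the authors' deposited table gives -1.67 at an RPKM ratio of 1.22, and for Cd151 it gives -1.36 at 1.33. For Tspan8 and Cd63, by contrast, the authors' deposited table gives 1.46 and 1.30, beside RPKM ratios of 1.55 and 1.37. The sign was opposite for 9 of the 20 tested members, against 31.4% of all tested genes. The lowest p-value of a tested member in the authors' deposited table was 0.0944, for Tspan12.

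The size of this difference went with the chromosome. For the 8 tested members on chromosomes 2, 10, 12 and 14, log2 of the fold change in the authors' deposited table minus log2 of the RPKM ratio lay between -0.21 and -0.04. For the 12 on chromosomes 3, 4, 6, 7, 9 and X it lay between -1.34 and -0.68, and all 9 opposite signs were among these. In those 12 the authors' deposited table was within 0.25 log2 units of a ratio computed with 0.5 times KO 35 in place of the KO mean, a comparison chosen after the values were seen. The directions given above are those of the RPKM columns.

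**Figure D5:**
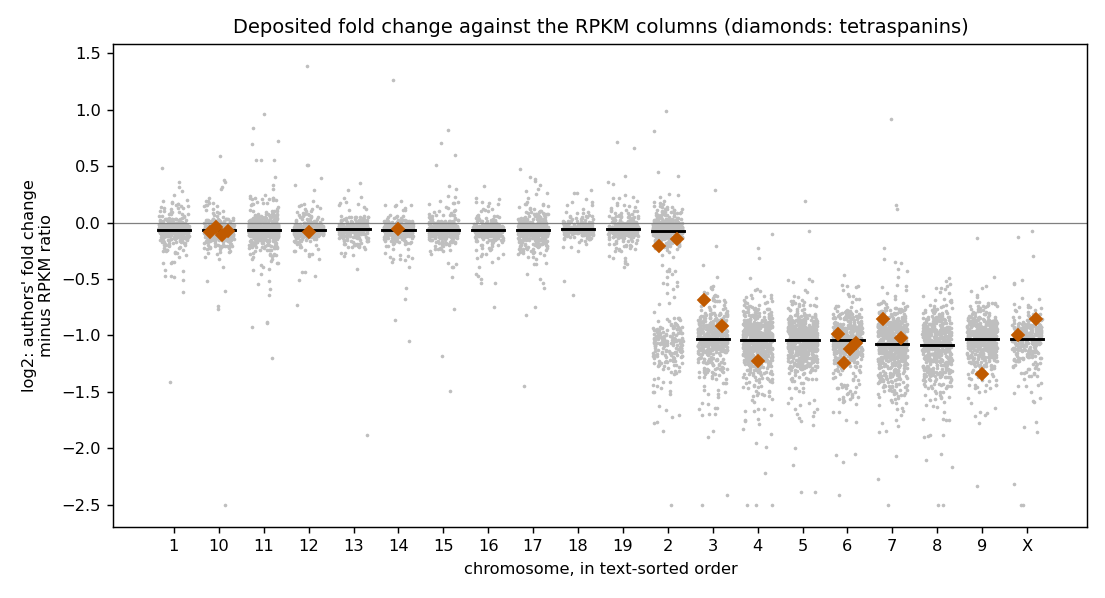
Log2 fold change of the authors' deposited table minus log2 RPKM ratio for each tested gene (grey), with the median per chromosome (black lines) and the tested tetraspanins (orange diamonds); chromosomes are in the order of sorted text, and points beyond the axis are drawn at its ends. Medians are near -0.06 on chromosomes 1 and 10 to 19 and near -1.04 on chromosomes 3 to 9 and X.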

How the data were processed

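The 4 columns of the deposited table are in RPKM per the file headers, not log transformed, as the authors made them. A p-value of the authors stands beside each gene, with no word on adjustment. The authors' signed fold change is taken as a score, since the values are either a ratio of at least 1 or minus the inverse of a lower one. Named in the submitters' processing notes, with no roles, are DESeq, Cufflinks 2.0.2, TopHat2 2.0.8, Bowtie2 2.1.0 and the build mm10. Annotation and filters: not given in the sources used here. Libraries were made with Nextera XT, per the labels.

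Libraries were grouped by column heading. The 10128 genes that reached 1 RPKM in 2 or more libraries entered a two-sided limma test (limma 3.58.1, R 4.3.3, prior variance with trend) of log2(RPKM + 1) on genotype, which leaves 2 residual beside 3.65 prior degrees of freedom. Adjustment by Benjamini-Hochberg ran over these genes, with 0.05 as threshold. The test was tried on simulated data. Lists are described by counts and medians, with no test of the list. Full values are given for members with a mean of at least 10 RPKM and for those with groups apart by at least 0.5 log2 units. The values of 1 partner gene are not reported here. Other named genes were chosen for their role or after their values were seen. The members, lists and rules were chosen with earlier results of these data known. Alternatives were the groups of the titles, a block by heading number, each library left out, pseudocounts of 5 and 0.1, a minimum of 10 RPKM or none, no trend, and quantile normalization.

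Positions and upstream sequences are from RefSeq (GRCm38.p6, all 29 members matched for position), exon overlaps from GENCODE M21 of the same build. Python 3.11.15 with pandas 2.3.3, numpy 2.4.6 and matplotlib 3.10.9 was used for tables and figures. Reads per library are unknown. Each SD is between the 2 libraries of a group. Each SE is the moderated one of limma, which joins the gene's own spread (2 degrees of freedom) to the prior from all tested genes (3.65). It can therefore be larger or smaller than the spread of that gene alone would give.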

Additional observations from a re-analysis of the deposited data

How the results depend on the processing

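No tetraspanin passed an adjusted p of 0.05 in limma under any of the 12 other settings, the lowest adjusted p being 0.123. With 1 library left out, the lone library of a group is assumed to vary like the other group. Of the 20 tested members 15 kept their direction in each of the 11 settings in which the headings set the groups. Leaving out 1 library moved the log2 fold change of the other 5 between -0.14 and 0.0647 (Cd9), -0.0256 and 0.24 (Tspan3), -0.0717 and 0.79 (Tspan11), -0.76 and 0.0015 (Tspan12) and -0.29 and 0.20 (Tspan18), and of the partners between -0.13 and 0.0574 (Itga3), -0.28 and 0.12 (Igsf8) and -0.22 and 0.15 (Ptgfrn). The median of the tested members (0.25) was 0.12 with no filter, 0.36 with a filter of 10 RPKM, 0.14 with a pseudocount of 5 and 0.13 to 0.25 with 1 library left out. The 14 members with groups apart became 7 with a filter of 10 RPKM, which left 9 members to test. The share of all genes with groups apart was counted in the main setting only. Over all genes, the 7 calls became 2 with no filter, 4 with a filter of 10 RPKM, 4 with a pseudocount of 5 and 8 to 43 with 1 library left out, the highest counts being without WT 27 (43) and without WT 35 (28).

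With the groups of the titles 4 genes were called, and the member median was -0.0053, beside 0.033 for all tested genes. Of the 20 members 2 had groups apart, 1 in either direction. The share of all genes with groups apart was not counted for the groups of the titles. Log2 fold changes then turned to -0.0642 (Cd81), -0.22 (Tspan3), -0.15 (Tspan5), -0.20 (Tspan6), -0.0546 (Tspan8), 0.0358 (Tspan9), 0.33 (Tspan12), -0.15 (Tspan13), 0.14 (Tspan14), 0.38 (Tspan18), -0.0733 (Tspan31), 0.17 (Emc3), -0.0372 (Adam10), 0.0941 (Itga3), -0.0115 (Itga6), 0.21 (Ptgfrn) and 0.49 (Met). The cause of these changes was not tested beyond the change of groups itself.

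With a replicate block by the heading numbers 27 and 35, 9 genes and 0 tetraspanins were called and the member median stayed at 0.25. Deviations of the libraries sharing a number correlated at 0.15 across genes, and nothing states that the numbers pair the libraries. By the titles both libraries numbered 27 are WT and both numbered 35 are KO. The groups of the titles and this block therefore divide the libraries in the same way. The replicate numbers in the titles coincide with the heading groups, so a block by them could not be fitted.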

Other observations

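Of 4 pairs of members that lie next to each other in the genome, 2 were at very unlike levels. Cd81 averaged 71.6 RPKM over the 4 libraries and Tspan32, which ends 33263 bases before it on chromosome 7, 0.237 RPKM. Cd151 averaged 13.9 RPKM and Tspan4, which begins 3754 bases after it with 1 other protein-coding gene between, 0.398 RPKM. Tspan11 and Tspan9 on chromosome 6 (8364 bases apart) averaged 15.8 and 9.04 RPKM, and Tspan18 and Cd82 on chromosome 2 (84550 bases apart) 1.40 and 1.90 RPKM. No neighbouring pair had both groups apart in the same direction among tested members.

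The difference between the fold changes of the authors' deposited table and the RPKM columns, first seen in the tetraspanins, held over all tested genes with a RefSeq position. On chromosomes 1 and 10 to 19, the median of log2 of the authors' fold change minus log2 of the RPKM ratio was -0.06 over 4522 genes, and it was below -0.5 for 0.796% of them. On chromosomes 3 to 9 and X the median was -1.04 over 4197 genes, with 99.3% below -0.5. Chromosome 2 held both kinds with 1 change point, placed after its values were seen: 3 of 550 genes up to Xrn2 (start 147012755, GRCm38.p6) were below -0.5, and 197 of 197 genes from Foxa2 (start 148042877) on. In a text sort of chromosome names, chromosome 2 stands between 19 and 3. On chromosomes 3 to 9 and X, the authors' values differed from log2 of 0.5 times KO 35 over the WT mean by a median of -0.06 (SD over genes 0.15), and from the same with KO 27 by a median of -0.03 (SD over genes 0.44). What made the values differ by chromosome was not tested. A reader who takes directions from the deposited fold changes gets, for Cd81, Cd151, Tspan1, Tspan2, Tspan3, Tspan5, Tspan6, Tspan7 and Tspan11, the opposite of what the RPKM columns give.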
